A study of Homo sapiens with 12 samples.

Results

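Homologous recombination repairs a broken chromosome from its sister copy, the Fanconi anemia pathway removes crosslinks between the strands of DNA, and a set of kinases signals damage to the cell cycle. The 37 genes described here serve these 3 tasks. They were chosen by name as a list of double-strand break repair, crosslink repair and checkpoint genes, out of the 60662 genes of the table. The list is one of names and sets no threshold on any measured value, but it was drawn up with earlier results of these data known. All 37 were found in it by symbol, and 37 of 37 passed the filter on low values, which left 16815 genes for the tests. NCI-H295R, a human adrenocortical carcinoma cell line that makes cortisol, was grown to confluence and kept without serum for 12 h. It then received CJ28 (30 µM, a benzimidazolylurea that inhibits cortisol production), MET (metyrapone, 30 µM, an inhibitor of the last enzyme of cortisol synthesis) or VEH (DMSO, 0.1%) for 24 h, with 4 samples in each group. All 12 samples thus share the serum-free medium and the time point, and all come from 1 cell line. The sources do not say whether the 4 samples of a group came from separate days. The p-values thus measure the spread between these cultures.

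In recombination, the broken ends are first trimmed to single strands, BRCA1, PALB2 and BRCA2 then prepare the single strands, and the proteins of strand exchange pair them with the matching sequence. In crosslink repair, a core complex attaches ubiquitin to the FANCD2-FANCI pair, which closes as a clamp on DNA. ATM answers mainly to breaks and ATR to stalled replication forks. Many of these genes are transcribed mostly in late G1 and S phase under E2F factors, so that their transcripts tend to be low in cells that do not replicate DNA.

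The promoters hold a sequence feature that the choice of genes did not use. In RefSeq windows of 300 bases (250 before and 50 after the start site, GRCh38.p14), 34 of the 37 genes were matched, C1orf112 under its newer symbol FIRRM, and FANCI, NBN and RAD54B had no window. The letters TTTGGCGC, TTTCGCGC or TTCCCGCC, 3 forms of the E2F type motif, were searched on both strands. At least 1 of them was present in 13 of the 34 genes (38.2%), against 5.11% of the 27305 genes in the same table. Of the 3, TTCCCGCC was the most frequent, in 10 of the 34 (29.4% against 3.79%), while TTTCGCGC was found in 3 (8.82% against 0.63%) and TTTGGCGC in 1 (2.94% against 0.795%). These background shares cover all genes with a window, with no filter on gene class or expression. The listed genes are all protein-coding, and all passed the filter on low values. They also had 46 windows for 34 genes, against 35116 for 27305. A background of expressed protein-coding genes was not computed. The promoters below are those of the 5 genes among the 13 with the largest change under CJ28, and the capitals mark the motif. They lie at chr17:61863479-61863778 (BRIP1, minus strand), chr1:35769929-35770228 (CLSPN, minus strand), chr1:241847954-241848253 (EXO1, plus strand), chr22:38570134-38570433 (DMC1, minus strand) and chr15:90717096-90717395 (BLM, plus strand).
BRIP1: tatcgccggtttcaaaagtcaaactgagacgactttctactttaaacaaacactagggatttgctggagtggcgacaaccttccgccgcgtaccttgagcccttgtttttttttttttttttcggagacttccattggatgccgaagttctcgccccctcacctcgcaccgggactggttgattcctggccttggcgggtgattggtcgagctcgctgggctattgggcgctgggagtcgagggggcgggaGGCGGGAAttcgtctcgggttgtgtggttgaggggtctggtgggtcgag
CLSPN: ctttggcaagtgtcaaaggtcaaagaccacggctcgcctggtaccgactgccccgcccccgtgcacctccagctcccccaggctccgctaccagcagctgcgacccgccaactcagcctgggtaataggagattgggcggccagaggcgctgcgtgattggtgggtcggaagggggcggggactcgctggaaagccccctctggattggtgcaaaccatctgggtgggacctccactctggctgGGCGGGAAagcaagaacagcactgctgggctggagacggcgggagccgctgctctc
EXO1: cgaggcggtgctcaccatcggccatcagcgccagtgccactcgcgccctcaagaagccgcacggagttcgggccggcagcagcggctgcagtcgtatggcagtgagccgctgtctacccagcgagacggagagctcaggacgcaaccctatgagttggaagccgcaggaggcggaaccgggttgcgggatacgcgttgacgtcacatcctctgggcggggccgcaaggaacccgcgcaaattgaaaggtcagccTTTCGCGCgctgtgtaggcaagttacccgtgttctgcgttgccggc
DMC1: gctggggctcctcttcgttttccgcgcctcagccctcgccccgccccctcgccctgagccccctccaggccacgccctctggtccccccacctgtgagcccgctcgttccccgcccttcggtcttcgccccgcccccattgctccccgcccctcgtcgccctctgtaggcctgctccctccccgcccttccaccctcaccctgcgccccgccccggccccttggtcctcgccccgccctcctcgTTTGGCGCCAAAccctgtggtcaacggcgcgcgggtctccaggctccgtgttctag
BLM: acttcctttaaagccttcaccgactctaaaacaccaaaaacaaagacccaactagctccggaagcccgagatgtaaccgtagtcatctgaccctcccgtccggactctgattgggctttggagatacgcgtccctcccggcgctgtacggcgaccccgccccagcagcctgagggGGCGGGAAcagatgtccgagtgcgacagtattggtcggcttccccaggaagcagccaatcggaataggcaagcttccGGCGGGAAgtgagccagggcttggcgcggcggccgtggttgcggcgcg

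Each of the 5 holds the motif within a few bases of the start site. Counted from the start base to the first base of the motif, it lay 1 base downstream in BRIP1, 4 bases downstream in EXO1 and 6 bases upstream in CLSPN. BLM holds 2 copies, 75 bases upstream and 2 bases downstream. In DMC1, TTTGGCGC and its reverse complement overlap in 1 palindrome. Of the 21 matched genes that were lower in CJ28 than in VEH, 12 hold a motif of this type (BLM, BRIP1, CLSPN, EXO1, FANCC, FANCD2, FANCL, RAD51AP1, RAD54L, TOPBP1, XRCC2 and XRCC3), against 0 of the 5 that were higher and 1 of the 8 that did not pass the test (DMC1). The share of motif-bearing genes among all genes that were lower, or higher, in CJ28 was not computed. This split therefore has no background beside it, it rests on few genes, and it was not tested. CCAAT, the box of the factor NF-Y, was present in 15 of 34 (44.1% against 39.7% of all genes), and TTTGAA, the core of the cell cycle genes homology region, in 4 of 34 (11.8% against 18.2%). A match is a run of letters in this window and does not show that a factor binds there.

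CJ28 changed 29 of the 37 genes, most of them downward. Against VEH, 24 were lower, 5 were higher (RAD50, RAD51D, FANCF, ATM and ATR) and 8 did not pass the test (RBBP8, BRCA1, PALB2, RAD51B, RAD51C, DMC1, FANCE and CHEK2) in a limma fit of log2(TPM + 0.1) over all 16815 genes, with a Benjamini-Hochberg adjusted p under 0.05 as the threshold. TPM is a transcript level scaled to the length of the gene and to the sum of the sample. CJ28 changed much of the transcriptome, and 57% of all genes tested passed in either direction. Of all genes, 37.1% were lower and 19.9% higher, and 64.9% of the listed genes were lower and 13.5% higher beside that background. Their median log2 fold change was -0.45, with a range from -1.14 (BRIP1) to 0.39 (ATR), and the median over all genes tested was -0.13. The TPM ranges of CJ28 and VEH did not overlap in 22 genes that were lower and in 2 that were higher (RAD50 and ATR), against 32.7% and 17.7% of all genes. The summed level of the 37 genes was 416 ± 12.4 TPM (SD, n = 4) in VEH, against 328 ± 10.6 in CJ28 and 411 ± 5.42 in MET.

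**Figure D1:**
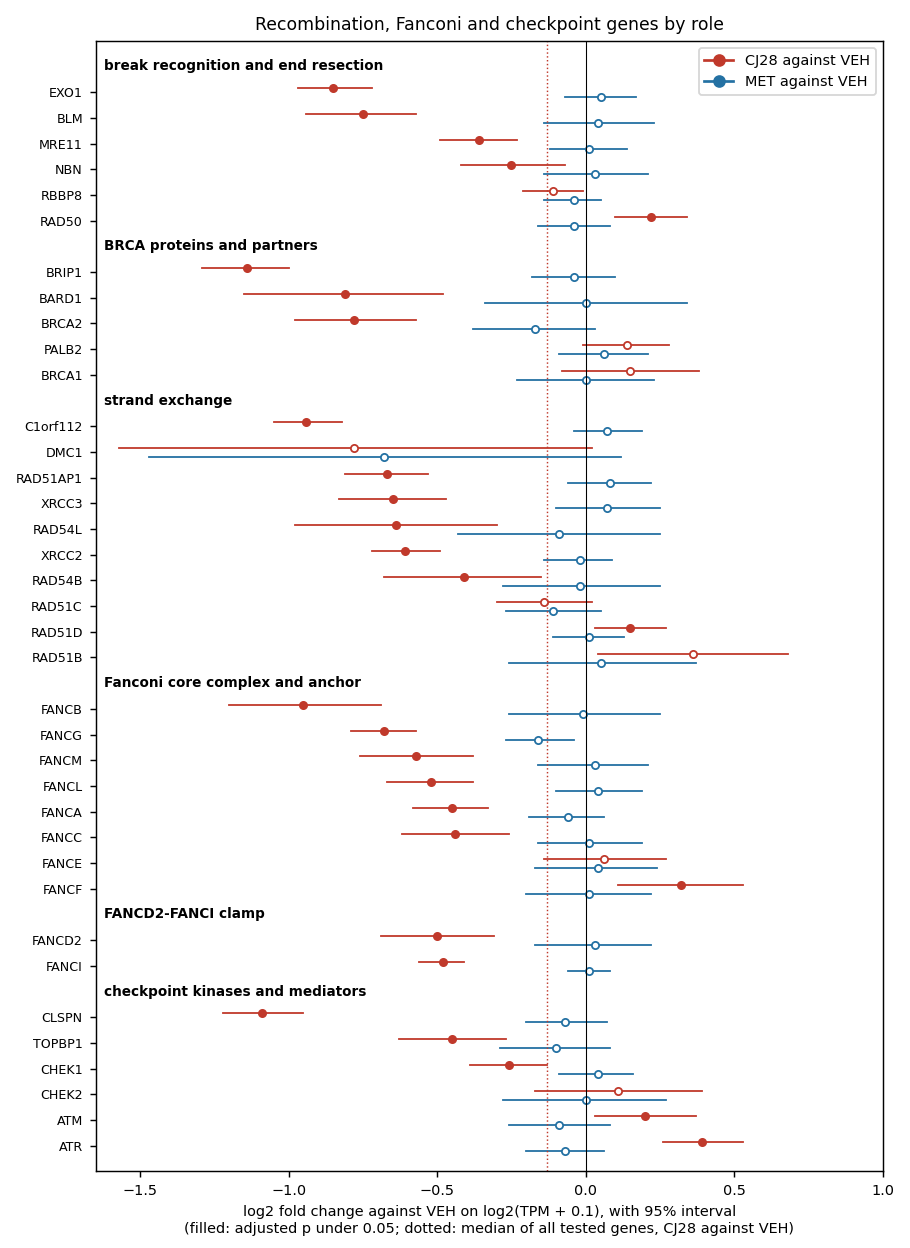
Each row is 1 gene, grouped by role, and the horizontal axis is the log2 fold change against VEH on the log2(TPM + 0.1) scale, with its 95% interval from limma (red, CJ28; blue, MET; filled points, adjusted p under 0.05; n = 4 a group). The red points reach from -1.14 (BRIP1) to 0.39 (ATR), and none of the blue points is filled.

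The scale matters for the genes with small changes. Protein-coding genes took 21.3 to 21.4% of the TPM in CJ28 samples and 24.1 to 24.8% in the others, and TPM values of 1 sample share a fixed sum. With median-of-ratios scaling, the split became 21 lower and 8 higher (26.3% and 29.3% of all genes), with a median of -0.30 beside 0.01 for all genes. With each sample scaled to its protein-coding sum, it was 21 lower and 9 higher (23.4% and 33.1% of all genes), with a median of -0.25 beside 0.06. Under both scalings NBN, RAD54B and CHEK1 no longer passed, and BRCA1, PALB2 and RAD51B passed as higher. FANCE passed as higher under the protein-coding scaling alone. The other 21 genes that were lower and all 5 that were higher passed under both. In bulk RNA, fewer cells in S phase and less RNA per cell cannot be told apart.

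The labels were checked on marker genes. The 9 adrenocortical markers summed to 282 TPM or more in every VEH and MET sample and to 118 to 124 in CJ28, and all 9 were lower in CJ28 than in VEH. Markers of fibroblasts, endothelium and leukocytes summed to at most 1.83, 0.14 and 0.92 TPM in any sample, and none of these genes passed the filter. The 18 proliferation markers summed to 856 to 923 TPM in VEH, 867 to 894 in MET and 431 to 441 in CJ28. They moved in the same direction as most of the repair genes, and their part in the changes described here was not tested.

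Of the 6 genes that recognise and trim broken ends, 4 were lower in CJ28 (EXO1, BLM, MRE11 and NBN) and 1 was higher (RAD50). These shares, 66.7% and 16.7%, stood beside 37.1% and 19.9% of all genes. EXO1, an exonuclease that extends the trimming (chr1:241847967-241895148), was 15.51, 16.67, 15.78 and 16.59 TPM in VEH replicates 1 to 4, 9.72, 9.0, 9.21 and 7.89 in CJ28 and 16.74, 16.68, 17.07 and 16.31 in MET. Every CJ28 sample was below every sample of the other groups. On the log2 scale EXO1 fell by 0.85 against VEH (SE 0.057, adjusted p = 7.3e-08). BLM, the Bloom syndrome helicase that works beside EXO1 and also takes joined molecules apart (chr15:90717346-90816166), was 8.18, 8.81, 7.57 and 6.7 TPM in VEH, 4.55, 4.17, 5.11 and 4.5 in CJ28 and 7.82, 7.57, 8.4 and 8.31 in MET. Its CJ28 range lay below the other ranges, with a fall of 0.75 (SE 0.084, adjusted p = 7.7e-06).

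MRE11, RAD50 and NBN form 1 complex that binds broken ends, and the 3 did not move alike. RAD50, its ATPase, was 17.65, 17.89, 19.72 and 19.61 TPM in VEH, 21.78, 21.56, 22.44 and 21.65 in CJ28 and 18.71, 18.16, 16.44 and 19.54 in MET. The CJ28 samples were all above the others, a rise of 0.22 (SE 0.055, adjusted p = 0.0039). MRE11, its nuclease, fell from 9.19 ± 0.329 TPM (SD, n = 4) in VEH to 7.17 ± 0.52 in CJ28 (log2 -0.36, SE 0.06, adjusted p = 0.00026). NBN, the adaptor that recruits ATM, went from 14.9 ± 0.581 to 12.7 ± 1.44 TPM (-0.25, SE 0.082, adjusted p = 0.022), a call that was lost under both scalings and without VEH replicate 2 (adjusted p = 0.058). RBBP8, also known as CtIP, the cofactor that starts the trimming, was 18.9 ± 0.53 TPM in VEH and 17.5 ± 0.932 in CJ28 (-0.11, adjusted p = 0.052), and its difference turned to 0.04 with median-of-ratios scaling, while it passed as lower without CJ28 replicate 3 (adjusted p = 0.015) or MET replicate 2 (adjusted p = 0.044). An antisense RNA at the RAD50 locus, TH2LCRR, was at 20.4 TPM on average, and NBN is overlapped on the other strand by DECR1 at 28.6 TPM. Whether strand was used in counting is not given in the sources used here, so reads of such pairs may not be told apart.

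Among BRCA1, BRCA2 and their partners, 3 of 5 were lower in CJ28 (BRIP1, BARD1 and BRCA2), and none was higher. Beside these 60% and 0%, the shares of all genes were 37.1% and 19.9%. BRIP1, a helicase that binds BRCA1 and is also known as FANCJ (chr17:61679139-61863528), had the largest change of the 37. It was 6.2, 6.53, 5.92 and 6.63 TPM in VEH, 2.88, 2.81, 3.0 and 2.54 in CJ28 and 6.02, 6.62, 6.18 and 5.78 in MET. All CJ28 samples lay under all other samples, a fall of 1.14 (SE 0.065, adjusted p = 1.6e-08). BARD1, which pairs with BRCA1 to form a ubiquitin ligase, was 5.79, 6.19, 5.95 and 7.86 TPM in VEH, 4.97, 3.28, 3.38 and 3.03 in CJ28 and 8.04, 5.79, 6.15 and 5.88 in MET. CJ28 replicate 1 stood nearest to the VEH samples, but the ranges did not overlap, and BARD1 fell by 0.81 (SE 0.16, adjusted p = 0.00069). BRCA2, which prepares single-stranded DNA for strand exchange (chr13:32315086-32400266), was 3.79, 4.39, 4.46 and 4.59 TPM in VEH, 2.4, 2.13, 2.79 and 2.59 in CJ28 and 4.23, 3.95, 3.55 and 3.53 in MET. It fell by 0.78 (SE 0.094, adjusted p = 1.6e-05), with all CJ28 samples under the VEH range.

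BRCA1 did not share that fall. Its levels were 7.85, 9.75, 8.39 and 10.25 TPM in VEH, 11.57, 10.11, 8.97 and 9.59 in CJ28 and 9.0, 8.89, 7.92 and 10.47 in MET. The 3 ranges overlapped, with a difference of 0.15 between CJ28 and VEH (95% interval -0.08 to 0.38, adjusted p = 0.24), which passed as 0.30 (adjusted p = 0.016) with median-of-ratios scaling. PALB2, the bridge between BRCA1 and BRCA2, was 6.41 ± 0.572 TPM in VEH and 7.05 ± 0.448 in CJ28 (0.14, interval -0.01 to 0.28, adjusted p = 0.099), and it passed as 0.29 with that scaling and without VEH replicate 2 (adjusted p = 0.026). BRCA1 is overlapped by the antisense gene NBR2 at 1.89 TPM and by AC060780.1, on its own strand, at 4.46 TPM.

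**Figure D2:**
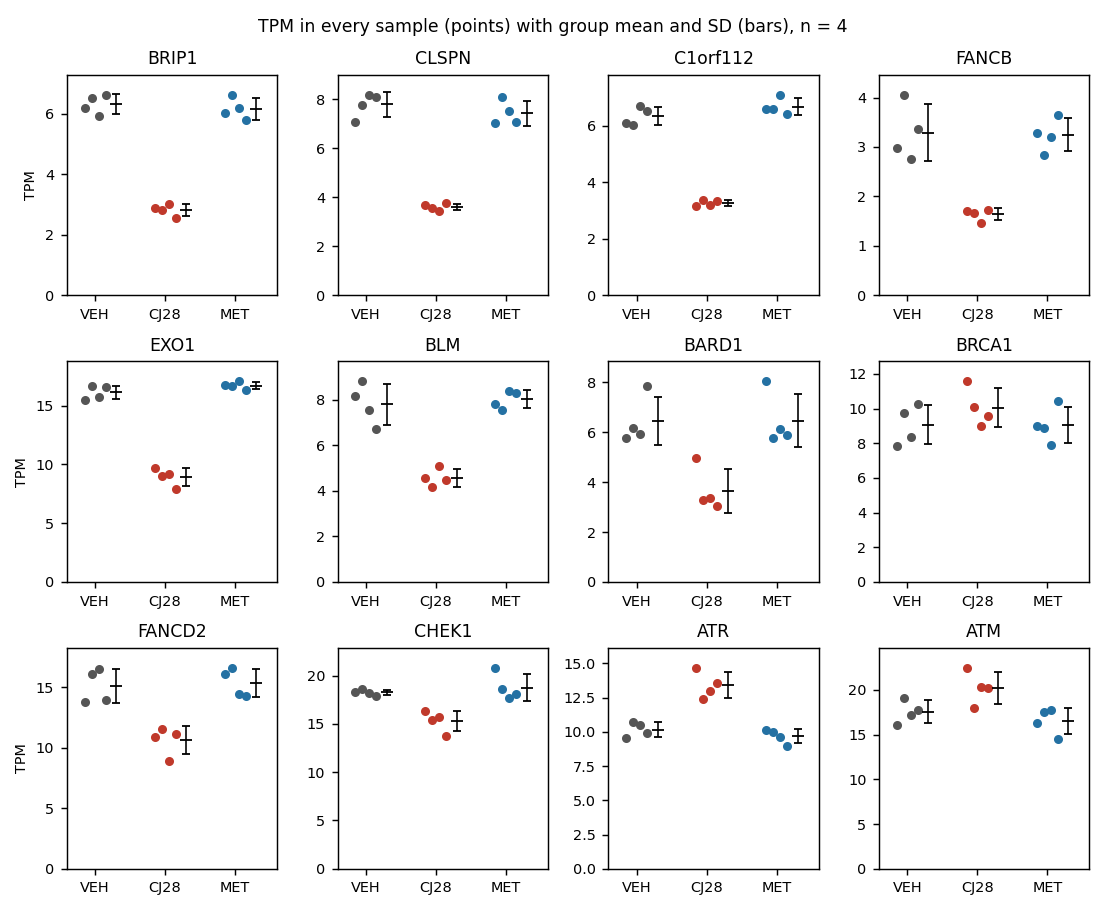
TPM (vertical axis, from 0) of 12 genes in every sample by group, with the group mean and SD beside the points (n = 4). BRIP1 lies between 2.54 and 3.0 in CJ28 and at 5.78 or above elsewhere, BRCA1 overlaps in all groups, and ATR lies at 12.4 or above in CJ28 and at 10.69 or below elsewhere.

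Ratios of partners within a sample do not depend on how samples are scaled. The 6 pairs given here were chosen after their values had been seen, and no test was run on them. BARD1 was 0.712 ± 0.0566 of BRCA1 in VEH (SD, n = 4), 0.362 ± 0.0526 in CJ28 and 0.721 ± 0.145 in MET. BRCA2 was 0.675 ± 0.0661 of PALB2 in VEH, 0.351 ± 0.0253 in CJ28 and 0.572 ± 0.0586 in MET. MRE11 was 0.492 ± 0.0327 of RAD50 in VEH, 0.328 ± 0.0195 in CJ28 and 0.51 ± 0.0527 in MET. For these 3 pairs, and for CHEK1 to ATR (1.8 ± 0.0894 in VEH, 1.15 ± 0.101 in CJ28 and 1.94 ± 0.103 in MET), the CJ28 and VEH ranges did not overlap. In each of these pairs the first gene had passed as lower without scaling and the second had not. The separation is thus not independent of the calls of the single genes. How often ratios of other gene pairs separate was not computed. The CJ28 and VEH ranges overlapped for FANCD2 to FANCI (0.389 ± 0.0327 in VEH and 0.385 ± 0.0495 in CJ28) and for CHEK2 to ATM (0.37 ± 0.034 and 0.353 ± 0.0742). The MET and VEH ranges overlapped in all 6 pairs.

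**Figure D3:**
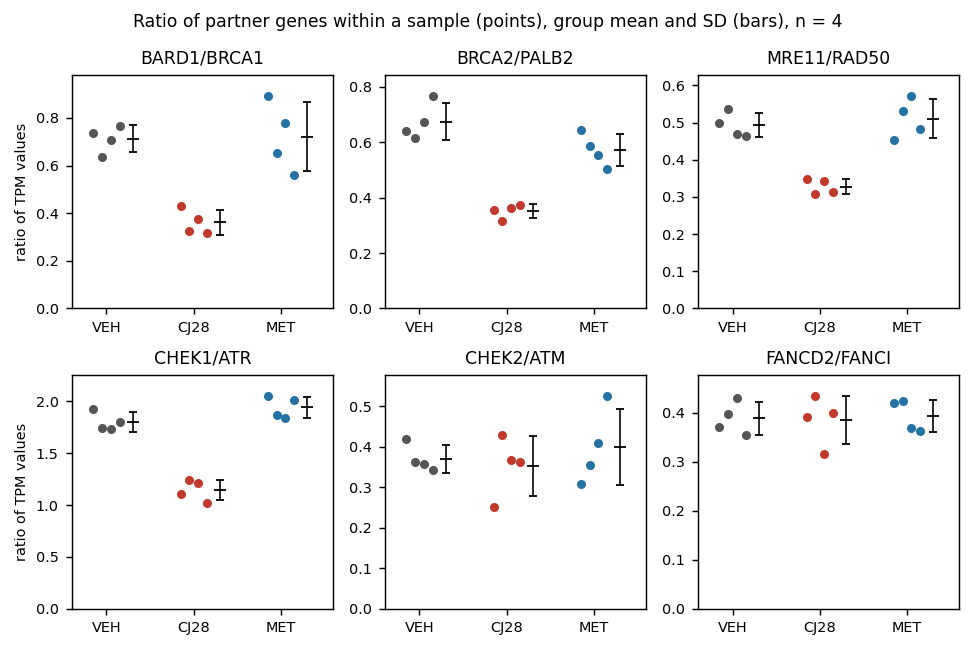
Ratio of the TPM values of 2 partner genes within each sample (vertical axis, from 0) by group, with the group mean and SD (n = 4). In the first 4 panels the CJ28 points lie below all VEH points, and in CHEK2/ATM and FANCD2/FANCI they overlap.

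In the 10 genes of strand exchange, 6 were lower in CJ28 (C1orf112, RAD51AP1, XRCC3, RAD54L, XRCC2 and RAD54B) and 1 was higher (RAD51D). These shares, 60% and 10%, stood beside 37.1% and 19.9% of all genes. C1orf112, or FIRRM, a partner of the ATPase FIGNL1, was 6.09, 6.03, 6.69 and 6.52 TPM in VEH, 3.16, 3.36, 3.18 and 3.34 in CJ28 and 6.59, 6.59, 7.1 and 6.4 in MET. The 4 CJ28 samples were close together and under all others, a fall of 0.94 (SE 0.054, adjusted p = 1.7e-08). RAD51AP1, which promotes the pairing of strands, was 24.64, 20.32, 22.44 and 21.98 TPM in VEH, 14.62, 14.1, 14.63 and 12.63 in CJ28 and 24.15, 24.66, 22.18 and 23.35 in MET. It fell by 0.67 (SE 0.064, adjusted p = 1.9e-06), without overlap of the ranges.

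XRCC2, XRCC3, RAD51B, RAD51C and RAD51D, related proteins that act in small complexes during strand exchange, split by gene. XRCC2 fell from 7.6 ± 0.254 TPM (SD, n = 4) in VEH to 4.96 ± 0.266 in CJ28 (log2 -0.61, adjusted p = 8.5e-07) and XRCC3 from 10.2 ± 0.639 to 6.48 ± 0.74 (-0.65, adjusted p = 2.3e-05). RAD51D was 5.06, 5.43, 5.08 and 5.55 TPM in VEH, 5.83, 5.55, 5.97 and 6.12 in CJ28 and 5.17, 5.2, 5.17 and 5.69 in MET. Its rise of 0.15 (SE 0.055, adjusted p = 0.033) was small, the lowest CJ28 sample met the highest VEH sample, and the call was lost without CJ28 replicate 1, 3 or 4 or VEH replicate 1 or 3 (adjusted p from 0.057 to 0.084), in a fit of only the groups compared (adjusted p = 0.051) and with all genes above 0 TPM kept (adjusted p = 0.056). RAD51C was 17.7 ± 1.53 TPM in VEH and 16 ± 0.939 in CJ28 (-0.14, adjusted p = 0.12), a difference of 0.01 with median-of-ratios scaling. RAD51B, at 1.89 ± 0.369 TPM in VEH and 2.43 ± 0.137 in CJ28, differed by 0.36 (adjusted p = 0.052), which passed without MET replicate 2 (adjusted p = 0.021) or VEH replicate 4 (adjusted p = 0.015). XRCC3 is overlapped on the other strand by KLC1, at 28.7 TPM.

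The 2 DNA motor proteins of strand exchange were both lower, but with overlapping ranges. RAD54L went from 7.62 ± 1.43 TPM in VEH to 4.83 ± 0.704 in CJ28 (-0.64, SE 0.16, adjusted p = 0.0038), and RAD54B from 5.19 ± 0.711 to 3.86 ± 0.459 (-0.41, SE 0.12, adjusted p = 0.011), the latter a call that was lost under both scalings. RAD54B is overlapped on its own strand by FSBP, at 3.57 TPM, and RAD54L on the other strand by LRRC41, at 12 TPM. DMC1, the recombinase of meiosis, was the lowest of the 37 genes, at 1.84, 1.16, 0.89 and 1.5 TPM in VEH, 0.86, 0.36, 0.62 and 1.32 in CJ28 and 0.63, 0.43, 1.1 and 1.18 in MET. The groups overlapped, and its difference of -0.78 between CJ28 and VEH had a wide interval (-1.57 to 0.02, adjusted p = 0.089). It passed without CJ28 replicate 4 (-1.04, adjusted p = 0.028).

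In the Fanconi core complex and its anchor, 6 of 8 genes were lower in CJ28 (FANCB, FANCG, FANCM, FANCL, FANCA and FANCC) and 1 was higher (FANCF). Beside these 75% and 12.5%, the shares of all genes were 37.1% and 19.9%. FANCB, on chromosome X, was 2.97, 4.06, 2.75 and 3.36 TPM in VEH, 1.7, 1.67, 1.46 and 1.73 in CJ28 and 3.29, 2.83, 3.21 and 3.65 in MET. All CJ28 samples were under all others, a fall of 0.95 (SE 0.12, adjusted p = 1.9e-05). FANCG, which binds FANCA in the complex, was 26.06, 28.2, 29.28 and 28.31 TPM in VEH, 17.93, 16.9, 18.6 and 16.19 in CJ28 and 24.11, 24.64, 26.33 and 25.27 in MET. In MET, 3 of 4 samples lay under the lowest VEH sample, and all CJ28 samples lay under both groups, a fall of 0.68 against VEH (SE 0.051, adjusted p = 2e-07).

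FANCL, the ligase subunit that attaches ubiquitin to the clamp, fell from 15 ± 0.659 TPM (SD, n = 4) in VEH to 10.5 ± 0.931 in CJ28 (-0.52, adjusted p = 2.2e-05). FANCM, the translocase that anchors the complex to DNA, fell from 4.85 ± 0.444 to 3.24 ± 0.356 (-0.57, adjusted p = 9.7e-05). FANCA went from 12.8 ± 1.01 to 9.35 ± 0.343 TPM (-0.45, adjusted p = 2.5e-05) and FANCC from 6.64 ± 0.431 to 4.89 ± 0.603 (-0.44, adjusted p = 0.00057). The ranges did not overlap in any of these 4. FANCE, which touches FANCD2, was at 1.69 ± 0.107 TPM in VEH and 1.78 ± 0.17 in CJ28 (0.06, interval -0.14 to 0.27, adjusted p = 0.58). FANCF, an adaptor within the complex, was 2.06, 1.8, 1.69 and 1.48 TPM in VEH, 2.04, 2.23, 2.22 and 2.32 in CJ28 and 1.72, 1.89, 1.75 and 1.69 in MET. Its rise of 0.32 (SE 0.096, adjusted p = 0.013) came with overlapping ranges, since VEH replicate 1 stood above the lowest CJ28 sample.

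Both subunits of the clamp were lower in CJ28, as were 37.1% of all genes. FANCD2 (chr3:10026414-10101930) was 13.82, 16.08, 16.51 and 13.93 TPM in VEH, 10.93, 11.58, 8.93 and 11.16 in CJ28 and 16.1, 16.57, 14.42 and 14.31 in MET. It fell by 0.50 (SE 0.089, adjusted p = 0.0004). FANCI, the most abundant of the 37 transcripts, was 37.21, 40.37, 38.42 and 39.24 TPM in VEH, 27.97, 26.67, 28.22 and 27.94 in CJ28 and 38.32, 39.15, 39.12 and 39.42 in MET. It fell by 0.48 (SE 0.033, adjusted p = 7.5e-08), and for both genes every CJ28 sample was below every other sample. FANCI is overlapped on the other strand by POLG, at 10.5 TPM.

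The 6 checkpoint genes moved in both directions. Among them, CLSPN, TOPBP1 and CHEK1 were lower in CJ28, ATR and ATM were higher, and CHEK2 did not pass. These shares, 50% and 33.3%, stood beside 37.1% and 19.9% of all genes. After median-of-ratios scaling they were 33.3% and 33.3%, beside 26.3% and 29.3%. With 6 genes, the split lay near that of all genes. CLSPN, or claspin, the mediator between ATR and CHEK1, was 7.08, 7.76, 8.19 and 8.11 TPM in VEH, 3.68, 3.57, 3.45 and 3.74 in CJ28 and 7.02, 8.1, 7.5 and 7.06 in MET. Its fall of 1.09 (SE 0.063, adjusted p = 1.7e-08) left all CJ28 samples under all others. TOPBP1, which switches ATR on, was 23.15, 24.84, 24.43 and 25.33 TPM in VEH, 19.77, 17.99, 19.37 and 14.73 in CJ28 and 25.55, 22.09, 21.98 and 21.63 in MET. CJ28 replicate 4 was the lowest and the ranges did not overlap, with a fall of 0.45 (SE 0.085, adjusted p = 0.00062). CHEK1, the kinase that ATR activates, was 18.35, 18.61, 18.2 and 17.93 TPM in VEH, 16.29, 15.37, 15.76 and 13.78 in CJ28 and 20.76, 18.6, 17.67 and 18.05 in MET. It fell by 0.26 (SE 0.059, adjusted p = 0.0024), a call that was lost under median-of-ratios scaling (-0.11, adjusted p = 0.18) and protein-coding scaling (-0.05, adjusted p = 0.46).

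ATR (chr3:142449007-142578733) was 9.52, 10.69, 10.49 and 9.94 TPM in VEH, 14.64, 12.4, 13.01 and 13.54 in CJ28 and 10.12, 9.97, 9.59 and 8.99 in MET. It had the largest rise of the 37 genes (0.39, SE 0.06, adjusted p = 0.00011), with all CJ28 samples above all others, and the rise was 0.55 with median-of-ratios scaling. ATM was 16.06, 19.13, 17.22 and 17.8 TPM in VEH, 22.41, 18.02, 20.34 and 20.17 in CJ28 and 16.33, 17.48, 17.76 and 14.51 in MET. CJ28 replicate 2 lay inside the VEH range, and the rise of 0.20 (SE 0.079, adjusted p = 0.044) was lost without any 1 of CJ28 replicates 1, 3 and 4, VEH replicates 1, 3 and 4 and MET replicate 1 (adjusted p from 0.055 to 0.13) and with all genes above 0 TPM kept (adjusted p = 0.094). ATM is overlapped on the other strand by NPAT, at 7.31 TPM. CHEK2, the kinase that ATM activates, was 6.48 ± 0.415 TPM (SD, n = 4) in VEH and 7.05 ± 0.956 in CJ28 (0.11, interval -0.17 to 0.39, adjusted p = 0.48).

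The levels of the 37 genes spanned a wide range in VEH. FANCI (38.8 TPM), FANCG (28), TOPBP1 (24.4) and RAD51AP1 (22.3) had the highest VEH means, and DMC1 (1.35), FANCE (1.69), FANCF (1.76) and RAD51B (1.89) the lowest. Within each of those groups of 4, TOPBP1 and RAD51AP1 differed by little more than the SD of RAD51AP1 (1.78), and FANCE, FANCF and RAD51B by less than that of RAD51B (0.369). Across the 37 genes, the Spearman correlation of the VEH level with the log2 fold change was 0.07 and the Pearson correlation -0.07. With the span of the gene, the Spearman correlation was 0.12 and Pearson's 0.04 (0.06 and 0.08 over all genes tested, 0.01 and 0.03 over the protein-coding ones). The listed genes, all protein-coding, are long, with a median span of 69.9 kb. That of all genes tested was 24.2 kb, and that of the protein-coding ones 33.8 kb. These are descriptions across genes that share the same libraries. The median coefficient of variation within a group was 6.49% in VEH, 6.78% in MET and 7.47% in CJ28. DMC1 was the most variable gene in each (30.6%, 43.5% and 51.7%).

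**Figure D4:**
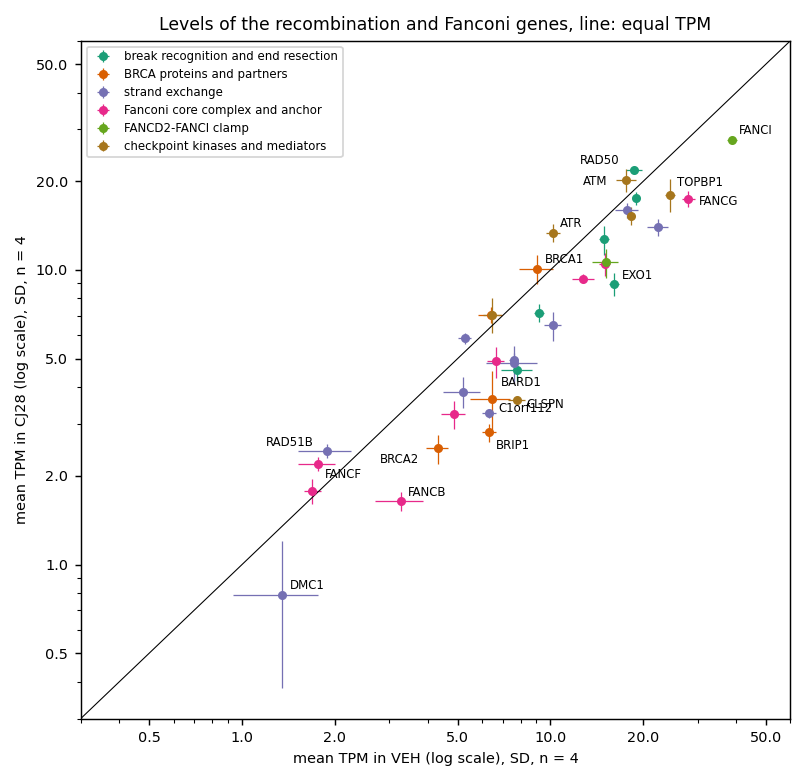
Mean TPM in CJ28 (vertical, log scale) against mean TPM in VEH (horizontal, log scale) for the 37 genes, coloured by role, with SD bars (n = 4) and a line of equal levels. Genes such as BRIP1 (6.32 in VEH, 2.81 in CJ28) lie below the line, and ATR, ATM and RAD50 above it.

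MET, at the same dose and time, changed none of the 37 genes past the threshold. In all, 1 of the 16815 genes passed (0.00595%), and 874 had an unadjusted p under 0.05 in the limma fit, among them 1 of the 37. That gene was FANCG, with a difference of -0.16 (95% interval from limma -0.27 to -0.04). The smallest adjusted p in the list was 0.933. The median difference was 0.00, and the 95% interval lay within 0.5 of 0 in 36 of the 37 genes. The exception was DMC1 (-0.68, interval -1.47 to 0.12). For the genes with the largest falls in CJ28, the MET differences from VEH were -0.04 for BRIP1 (interval -0.18 to 0.10), -0.07 for CLSPN (-0.20 to 0.07), 0.07 for C1orf112 (-0.04 to 0.19) and -0.01 for FANCB (-0.26 to 0.25). No gene of the list had MET and VEH ranges that did not overlap, against 2.03% of all genes that were lower without overlap and 0.779% that were higher. Neither scaling brought any of the 37 past the threshold.

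Set directly against each other at 30 µM and 24 h, CJ28 was lower than MET in 24 of the 37 genes and higher in 5, against 34.6% and 20.9% of all genes tested (55.5% in either direction). This comparison uses the same CJ28 samples as the one above, so it is no second sample of their effect. The median was -0.40 for the list and -0.11 for all genes. The largest differences were in BRIP1 (-1.10, SE 0.065, adjusted p = 2.2e-08), CLSPN (-1.02, SE 0.063, adjusted p = 3.2e-08) and C1orf112 (-1.01, SE 0.054, adjusted p = 8.7e-09). ATR was higher by 0.47 (SE 0.06, adjusted p = 2.9e-05), ATM by 0.29 (SE 0.079, adjusted p = 0.0074), RAD50 by 0.26 (SE 0.055, adjusted p = 0.0013), FANCF by 0.31 (SE 0.096, adjusted p = 0.017) and RAD51D by 0.14 (SE 0.055, adjusted p = 0.042). The RAD51D call was lost without CJ28 replicate 1, 3 or 4 or MET replicate 1, 2 or 3 (adjusted p from 0.07 to 0.1), in a fit of only the groups compared (adjusted p = 0.055) and with all genes above 0 TPM kept (adjusted p = 0.072). The ranges of CJ28 and MET did not overlap in 23 genes that were lower and in 5 that had higher CJ28 levels (RAD50, RAD51B, FANCF, ATM and ATR), against 31.3% and 18.9% of all genes. Differences that missed the threshold were those of RBBP8 (-0.07), BRCA1 (0.15), PALB2 (0.08), RAD51B (0.31), RAD51C (-0.03), DMC1 (-0.10), FANCE (0.03) and CHEK2 (0.12). With median-of-ratios scaling the split was 22 lower and 8 higher (26.1% and 28.7% of all genes), and with protein-coding scaling 19 and 9 (22.2% and 34%).

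Of 50 further recombination and crosslink repair genes, 25 were lower in CJ28 than in VEH, 9 were higher and 16 did not pass, with a median of -0.28. That is 50% lower and 18% higher, beside 37.1% and 19.9% of all genes. After median-of-ratios scaling, 22 were lower and 15 higher (44% and 30%, beside 26.3% and 29.3% of all genes), so that the share that was higher lay near the background in both. RMI1, the partner of BLM, went from 11.8 ± 1.86 to 4.35 ± 0.257 TPM (-1.41, adjusted p = 9.6e-08), and GEN1, a resolvase of joined chromosomes, from 7.87 ± 1.17 to 2.99 ± 0.265 (-1.36, adjusted p = 2.6e-06). ABRAXAS1, the scaffold of a BRCA1 complex at damaged chromatin, rose from 2.19 ± 0.25 to 4.03 ± 0.42 TPM (0.85, adjusted p = 4.4e-05), and the helicase RECQL5 from 4.57 ± 0.26 to 6.82 ± 1.11 (0.55, adjusted p = 0.00057). Among 19 further checkpoint genes, 14 were lower and 1 was higher (73.7% and 5.26%), with a median of -0.37, and after scaling 11 and 3 were (57.9% and 15.8%). The largest falls there were those of H2AX, the histone variant that marks breaks (42.7 ± 2.7 to 16.3 ± 2.48 TPM, -1.39), and of the kinase WEE1 (10.3 ± 1.09 to 5.48 ± 0.73 TPM, -0.90), and the 1 rise was in TIPIN (0.19, adjusted p = 0.048).

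Of 13 genes listed under non-homologous end joining, 7 were lower and 2 higher (53.8% and 15.4%), with a median of -0.17. The list also holds PARP1, LIG3 and XRCC1, which are not core genes of that pathway. After median-of-ratios scaling 4 were lower and 5 higher (30.8% and 38.5%, beside 26.3% and 29.3% of all genes). NHEJ1 (-0.67) and PARP1 (-0.64) fell most there, and the polymerases POLL (0.38) and POLM (0.30) rose. Of 26 genes of excision and mismatch repair, 10 were lower and 5 higher (8 and 11 after scaling), with a median of -0.07. Without scaling, the shares, 38.5% and 19.2%, lay at the background of 37.1% and 19.9% of all genes. After median-of-ratios scaling they were 30.8% and 42.3%, beside 26.3% and 29.3%. With protein-coding scaling they were 30.8% and 46.2%, beside 23.4% and 33.1%. The share that was higher thus lay above the background under both scalings, a difference that was not tested. FEN1, the flap nuclease of replication (-1.17), and UNG, which removes uracil (-0.95), fell most, while ERCC2, a helicase of nucleotide excision repair, rose from 7.5 ± 0.268 to 15.4 ± 1.06 TPM (1.03, adjusted p = 2.1e-08). PMS2 rose too (0.70), but it has near-identical copies in the genome among which reads may have been split. Whether any of these lists differs from the 37 genes was not tested.

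Of 19 tested p53 target genes, 8 were lower and 4 higher (5 and 9 after median-of-ratios scaling), with a median of -0.14. Without scaling, the shares, 42.1% and 21.1%, and the median lay near those of all genes (37.1%, 19.9% and -0.13). After median-of-ratios scaling the shares were 26.3% and 47.4%, beside 26.3% and 29.3% of all genes. With protein-coding scaling they were 21.1% and 47.4%, beside 23.4% and 33.1%. The share that was higher thus lay above the background under both scalings, a difference that was not tested. BBC3, which promotes apoptosis, rose from 0.9 ± 0.0906 to 3.91 ± 0.202 TPM (2.01, adjusted p = 2.6e-09), and GADD45A, a stress-induced growth arrest gene, from 3.4 ± 0.502 to 13.6 ± 0.844 (1.98, adjusted p = 3.2e-09). Both are also induced by stress signals that do not need p53. BTG2 (-0.97) and the lesion-bypass polymerase POLH (-0.96) fell. All 18 proliferation markers were lower, with a median of -0.92, led by RRM2, a subunit of ribonucleotide reductase (54.2 ± 5.44 to 7.74 ± 0.786 TPM, -2.79), and CCNE2, an S phase cyclin (11.6 ± 0.59 to 2.22 ± 0.118 TPM, -2.33). With protein-coding scaling, 17 of the 18 passed. Among 18 genes listed as transcriptional regulators of repair genes, 15 were lower and 1 higher, with a median of -0.47. These shares, 83.3% and 5.56%, stood beside 37.1% and 19.9% of all genes. After median-of-ratios scaling 12 and 3 were (66.7% and 16.7%, beside 26.3% and 29.3%). With protein-coding scaling 10 and 3 were (55.6% and 16.7%, beside 23.4% and 33.1%). Whether they regulate the genes described here was not tested. E2F2 (-1.51) and E2F7 (-1.28) fell most, and LIN54, a subunit of the complex that represses cell cycle genes in quiescence, rose by 0.14 (adjusted p = 0.022). In MET, 0 genes of any of these lists passed, with medians between -0.06 and -0.02.

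**Figure D5:**
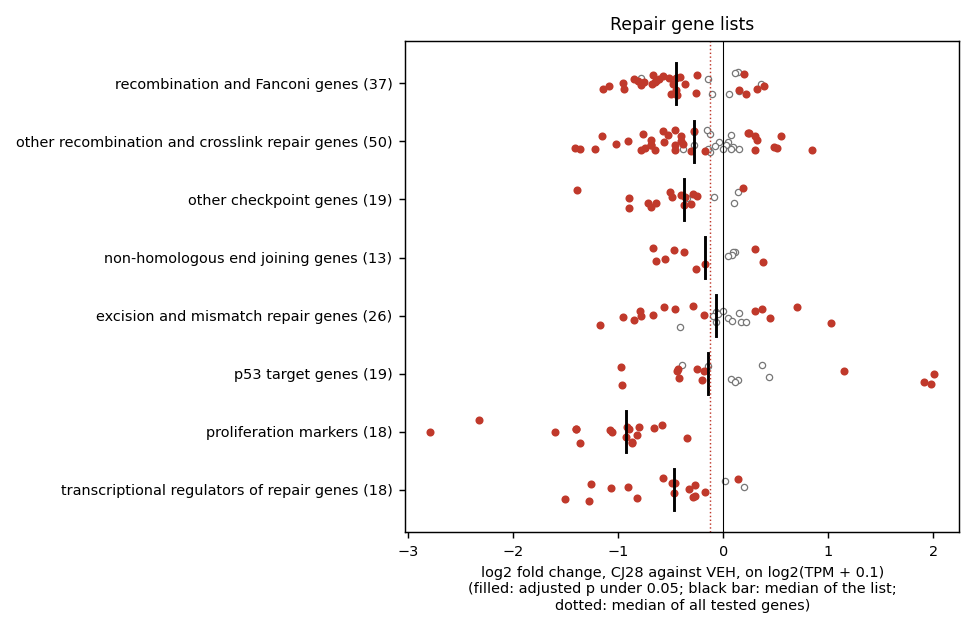
Log2 fold change of CJ28 against VEH on the log2(TPM + 0.1) scale (horizontal) for each gene of 8 lists, with the number tested in brackets (filled, adjusted p under 0.05; black bar, list median; dotted line, median of all genes tested). The medians run from -0.92 in proliferation markers over -0.45 in the recombination and Fanconi genes to -0.07 in excision and mismatch repair.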

How the data were processed

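RNA was sequenced from 12 cultures (4 each of VEH, CJ28 and MET) after depletion of ribosomal RNA, with stranded, paired-end libraries. The authors trimmed reads with Cutadapt (version 2.8), aligned them to GRCh38 with STAR (version 2.7.10b) and quantified genes with RSEM (version 1.3.3). The annotation release is not given in the sources used here. The deposited values are TPM, which keep no depth, so that no counting error or detection limit could be given, and only the spread between 4 samples a group limits the precision. RSEM divides reads among near-identical genes. The study used DESeq2 on counts, which were not analysed here.

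A linear model of log2(TPM + 0.1) with all 12 samples and no covariates was made in limma (lmFit and eBayes with a trend, version 3.58.1, in R version 4.3.3). It covered the 16815 genes at 0.5 TPM or above in 4 or more samples, and tests were two-sided, with Benjamini-Hochberg adjustment over all of them and a threshold of 0.05. A fold change on this scale is understated for low genes. The procedure was tested on simulated data. Other pseudocounts, filters and scalings, a fit of only the groups compared, a replicate block and leaving out each sample were tried.

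The genes, lists, markers and motifs were chosen with earlier results of these data known. Values in every sample are given for BRCA1, BRCA2, FANCD2, ATM, ATR, CHEK1, the 2 genes of each role with the largest change past the threshold and every gene that rose. DMC1 was added after its values were seen. In other lists, the 2 with the largest change in each direction are named, given a mean of at least 1 TPM. Gene coordinates are those of the deposited table.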

Additional observations from a re-analysis of the deposited data

Results flagged for a closer look

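In groups of 4 samples, 5 of the 111 values looked at (37 genes in 3 groups) had 1 sample far from the other 3 by Dixon's criterion, beside about 5.55 that chance would give at 1 in 20. All 5 were in MET. BARD1 was 8.04 TPM in MET replicate 1 against 5.79 to 6.15 in the others, and TOPBP1 was 25.55 TPM in the same sample against 21.63 to 22.09. RAD51B was 1.45 TPM in MET replicate 2 against 2.11 to 2.19, and FANCL was 16.94 TPM in that sample against 14.83 to 15.17. RAD51D was 5.69 TPM in MET replicate 4 against 5.17 to 5.2.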

How the results depend on the processing

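Of the 37 genes, 29 passed between CJ28 and VEH, and between 27 and 31 did when 1 sample was left out. Between CJ28 and MET 29 passed, and 28 to 29 did. The median for CJ28 against VEH was -0.30 with median-of-ratios scaling, -0.25 with protein-coding scaling (an alternative chosen after seeing the data) and -0.50 to -0.44 with 1 sample left out. For CJ28 against MET it was -0.28, -0.21 and -0.47 to -0.37. For MET against VEH it was 0.03 with median-of-ratios scaling and -0.02 to 0.03 with 1 sample left out. Only RBBP8, CJ28 against MET, changed sign past the threshold (0.12, adjusted p = 0.032, protein-coding scaling). In 66 of 2217 values of single genes under alternatives, a difference that had not passed changed sign. Where 1 sample was left out, 13 of 444 gene results for CJ28 against VEH lost the call and 6 gained it, and 6 of 444 lost it for CJ28 against MET. MET against VEH had 0 genes past the threshold under every setting run.

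The replicate numbers were not used as a pairing in the main fit, since no source says whether equal numbers share a culture day. Deviations of same-numbered samples correlated by 0.0236 on average for CJ28 and VEH, -0.0238 for MET and VEH and -0.0479 for CJ28 and MET. For samples of unlike number the averages were -0.00789, 0.00794 and 0.0159. Correlations this small do not settle whether equal numbers share a batch. With the replicate number as a block, 30, 0 and 29 genes passed, RAD51B (adjusted p = 0.041) and DMC1 (adjusted p = 0.038) among them against VEH but not ATM (adjusted p = 0.073).

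Without counts, the table sets no detection limit, so that low genes such as DMC1 have no error of their own beyond the spread between samples.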
